A study of Mus musculus with 9 samples.

Results

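The genes described here are the serine proteases and proprotein convertases of the mouse testis, chosen by name as every entry of the deposited table whose symbol begins with Prss, Tmprss, Klk or Pcsk. They are 91 of 38685 entries, namely 39 Prss, 26 Klk, 17 Tmprss and 9 Pcsk entries. Of them 88 are annotated as protein coding and 3 as long noncoding RNA (Prss23os, Pcsk2os1 and Pcsk2os2). Testis RNA came from C57BL/6 males of 3 genotypes with 3 libraries each, wildtype (Prm2+/+), Prm2-heterozygous (Prm2+/-) and Prm2-deficient (Prm2-/-), and was read near the 3′ end of polyadenylated transcripts by QuantSeq. The Prm2 alleles were made by CRISPR/Cas9 editing in oocytes and are carried in every cell of the animal, the tunica albuginea was removed before extraction, and the age of the males is not given in the sources used here. The comparisons ask which testis transcripts differ between males that lack protamine 2, the heterozygotes and wildtype males. The study describes the libraries of a genotype as biological replicates, while the labels tie no library to a single animal, and the p-values measure the spread between these libraries.

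Trypsin-like serine proteases cut proteins next to basic residues with a serine in the active site, and most are made as inactive precursors that another protease opens. In the male germ line many of them are made in spermatocytes and spermatids and end up in the acrosome, the secretory vesicle over the sperm nucleus, or anchored on the sperm surface, where they take part in the maturation of surface proteins such as ADAM3 and in the passage of sperm through the uterotubal junction and the egg coat. Several members of the family have lost the catalytic residues and act without cutting. Proprotein convertases are subtilisin-like serine proteases of the secretory pathway that open the precursors of hormones, receptors and ADAM proteins, and tissue kallikreins (Klk) are secreted trypsin-like proteases known above all from the salivary gland.

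The deposited values are normalized counts, that is, gene counts divided by 1 size factor per library, and the counts recovered from them summed to between 3629929 and 4490411 per library. Of the 91 entries, 49 carry identifiers of loci assembled by the program StringTie, among them Prss46, Prss50, Pcsk7 and Klk1b3. How far their values depend on this assembly was not tested. The third Prm2+/+ library stood apart from the other 8. In it 506 of the 14893 genes tested were low alone, with a gap of more than 2 on the log2 scale to the next library, against 33 to 76 such genes in each other library. Ldhc, a lactate dehydrogenase of spermatocytes, had 2505 normalized counts there and 27414 to 36393 in the other libraries. Elongating spermatid markers were abundant in all libraries, with a summed level of 206882 to 221676 normalized counts in Prm2+/+, 202802 to 215560.1 in Prm2+/- and 201454 to 210814 in Prm2-/- over 7 markers. The 7 spermatocyte markers, Ldhc among them, summed to 11315 to 41415 in Prm2+/+, 38580 to 45259 in Prm2+/- and 35323 to 37254 in Prm2-/-. Among 8 Sertoli cell markers, Amh and Fshr had 0 counts in every library. The 8 markers of the epididymal epithelium summed to at most 25.7 normalized counts in a library, with 4 of them (Lcn5, Lcn8, Rnase9 and Spint4) at 0 throughout, and 4 of 6 mast cell markers were at 0. The Prm2 transcript itself, at 33046 ± 5732 normalized counts in Prm2+/+ and 37809.8 ± 4344 in Prm2-/- (mean ± SD, n = 3), was not lower in the libraries labelled Prm2-/-, so it does not check the labels.

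Of the 91 genes, 37 had counts in all 9 libraries, 27 in some libraries and 27 in none (0 of 9), and a count of 0 leaves room for an expected value of up to 3 counts. The genes at 0 throughout included the pancreatic trypsinogen Prss1, the mast cell tryptase-like gene Prss34, the skin kallikreins Klk5 and Klk7, and the neural kallikreins Klk6 and Klk8. A filter on low counts left 36 genes for testing, namely 22 of 39 Prss, 9 of 26 Klk, 4 of 9 Pcsk and 1 of 17 Tmprss, and none (0) of the 55 genes left out exceeded 27.2 normalized counts in a library. In each library the 91 genes together held 7919 to 9745 normalized counts, of which the 39 Prss genes held 6143 to 7903 and the 17 Tmprss genes 29.8 to 107. Prss39, Prss37, Prss54, Klk1b8 and Prss52 had the 5 highest means and together held 53.7% to 60.3% of this sum. Per kilobase of merged exon length, Prss39 averaged 1174 ± 150.4 normalized counts over the 9 libraries, Klk1b8 898 ± 40.7, Prss37 868 ± 99.6, Prss52 645 ± 96.7 and Prss54 426 ± 57.8 (SD, n = 9). Klk1b8 and Prss37 were thus closer to each other than the spread between libraries. Because the reads come from the 3′ end, a level per length is only a rough scale here.

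**Figure D1:**
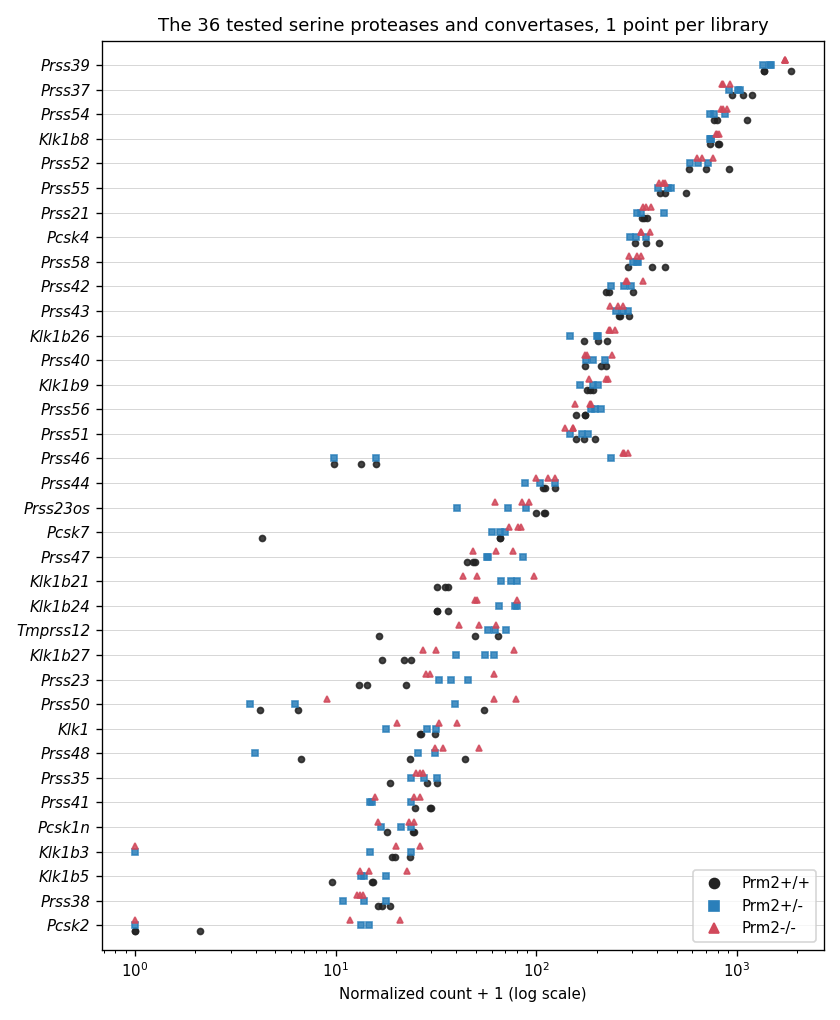
Normalized counts plus 1 (x axis, log scale) of the 36 tested genes, ordered by mean, with 1 point per library and 3 libraries per genotype. Most genes keep their 9 libraries close together, while Prss46, Pcsk7, Prss50, Klk1b3 and Pcsk2 have libraries more than 2 apart on the log2 scale.

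The testis protease Prss46, the kallikreins Klk1b21, Klk1b24 and Klk1b27 and the secreted protease Prss23 were at higher levels in each Prm2-/- library than in each Prm2+/+ library, and the inactive family member Prss37 was at lower levels, but none of these 6 differences passed the test across all genes. For each pair of genotypes limma was run on log2(normalized count + 1) of all tested genes. A gene counted as called if its Benjamini-Hochberg adjusted p was under 0.05 and its log2 fold change (LFC) was past 0.5, up or down. None (0) of the 36 genes was called in any of the 3 comparisons, which share libraries and are therefore not independent. Among all 14893 tested genes, 0.154% higher and 0.0269% lower were called in Prm2-/- against Prm2+/+, 0.0604% higher and 0.0201% lower in Prm2+/- against Prm2+/+, and 0.148% higher and 0.0269% lower in Prm2-/- against Prm2+/-. At an unadjusted p under 0.05, 5 of the 36 members were higher and 1 lower in Prm2-/- than in Prm2+/+, where among all tested genes 3.97% higher and 3.36% lower passed. In Prm2+/- against Prm2+/+, 4 were higher and 2 lower (all tested genes 2.23% higher and 2.01% lower), and in Prm2-/- against Prm2+/-, 2 were higher and 0 lower (all tested genes 3.21% higher and 2.23% lower). In both comparisons with Prm2+/+, 3 of the higher members were Klk1b21, Klk1b24 and Klk1b27. These are close copies whose reads could be split between them, so they may not count as separate genes. The median LFC of the 36 genes was 0.048, -0.077 and 0.092 in these comparisons, beside 0.020, 0.014 and -0.0059 over all tested genes, and 26, 25 and 33 of the 36 had an LFC within 0.5 of 0. For 12, 14 and 14 of the 36 genes the 95% interval of the LFC lay wholly within 0.5 of 0, and for the other genes it reached past 0.5 in at least 1 direction. Leaving out the third Prm2+/+ library also gave 0 calls among these genes in all 3 comparisons. The edgeR quasi-likelihood test made 0 calls as well, and DESeq2 made 1, as given beside Klk1b24.

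**Figure D2:**
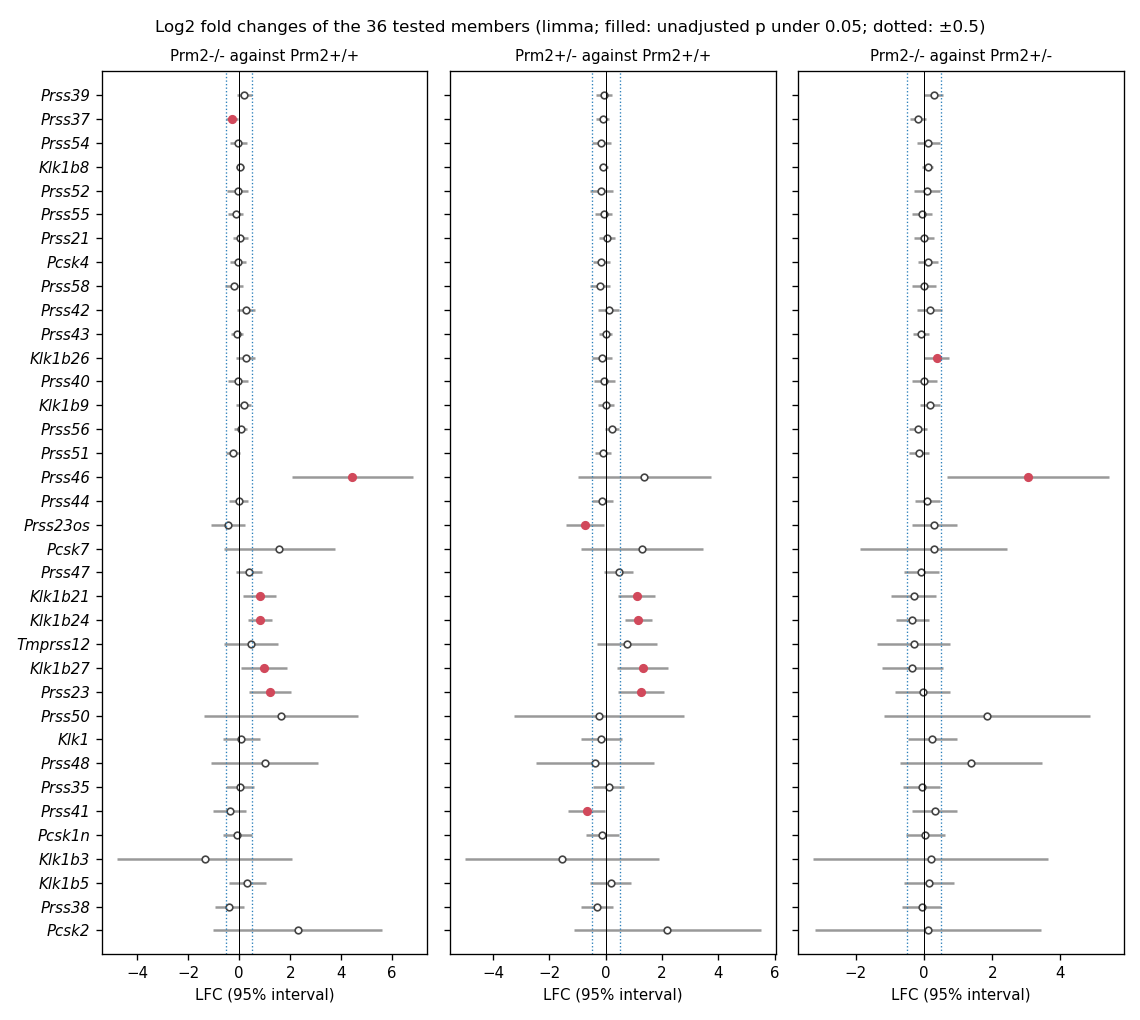
LFC with its 95% interval (x axis) of the 36 tested genes (y axis, ordered by mean level) in the 3 comparisons of genotypes. Filled points have an unadjusted p under 0.05 and dotted lines stand at an LFC of 0.5 in either direction. Prss46 has the highest LFC in Prm2-/- against Prm2+/+, with an interval of 2.06 to 6.80.

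The list of proteases of the acrosome and the sperm surface includes abundant members such as Prss39, Prss37, Prss54 and Prss52. Of its 19 genes 18 were tested, 0 were called in any comparison, and their median LFC was -0.039 in Prm2-/- and -0.10 in Prm2+/-, each against Prm2+/+, and 0.092 in Prm2-/- against Prm2+/-. Prss39, an acrosomal protease also known as TESP1, had 1361, 1362 and 1857 normalized counts in the Prm2+/+ libraries, 1483, 1468 and 1347 in Prm2+/- and 1739.7, 1734 and 1738 in Prm2-/-. The 3 Prm2-/- libraries lay above the 3 Prm2+/- libraries and inside the range of Prm2+/+, in which the third library was the highest. Its 95% interval between Prm2-/- and Prm2+/+ was -0.081 to 0.49 on the LFC scale. Prss40 (TESP2), its neighbour on chromosome 1, ranged from 175 to 238 with overlapping genotypes. Prss21, the GPI-anchored testisin, ranged from 318 to 430.3, and its interval between Prm2-/- and Prm2+/+ was -0.25 to 0.33. Prss55, which is needed for mature ADAM3 on sperm, ranged from 402 to 557, and its interval in the same comparison was -0.42 to 0.16.

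Prss37, a catalytically inactive family member required for ADAM3 maturation and male fertility in mice (chromosome 6, 40514824 to 40519508, minus strand of GRCm38), had 1072, 946 and 1186 normalized counts in the Prm2+/+ libraries, 909, 1033 and 1012 in Prm2+/- and 841, 850.4 and 921 in Prm2-/-. All Prm2-/- libraries lay below all Prm2+/+ libraries, and the Prm2+/- libraries spanned part of both ranges. The mean was 1068 ± 119.7 in Prm2+/+, 984 ± 66.6 in Prm2+/- and 871 ± 43.5 in Prm2-/- (SD, n = 3), with an LFC of -0.29 (SE 0.10, limma adjusted p = 0.604) for Prm2-/- against Prm2+/+. Without the third Prm2+/+ library, which held the highest value, the LFC was -0.21 (adjusted p = 0.596 in limma). The testis proteases Prss38, at 11.8 to 12.7 in Prm2-/- and 15.2 to 17.7 in Prm2+/+, and Prss51, at 139 to 152 and 158 to 196, were also lower in each Prm2-/- library than in each Prm2+/+ library. Together with Prss23os, 4 of the 36 genes were lower and 7 higher without overlap in this comparison, beside 6.92% higher and 7.10% lower among all tested genes. In Prm2+/- against Prm2+/+, 6 members were above and 2 below without overlap (all tested genes 4.88% higher and 4.56% lower), and in Prm2-/- against Prm2+/-, 6 were above and 0 below (all tested genes 7.47% higher and 7.25% lower). The higher members in both comparisons with Prm2+/+ include Klk1b21, Klk1b24 and Klk1b27, close copies that may not count as separate genes. Prss41 was 1 of the 2 lower genes in Prm2+/-, with 23.8, 28.9 and 28.7 normalized counts in the Prm2+/+ libraries, 13.8, 22.8 and 14.1 in Prm2+/- and 23.5, 25.4 and 14.8 in Prm2-/-. Its LFC between Prm2+/- and Prm2+/+ was -0.68 (SE 0.28, limma adjusted p = 0.842), and its annotated exons overlap those of Prss32 on the other strand.

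Prss46, a testis serine protease also called TESSP6 (chromosome 9, 110844506 to 110856522, plus strand of GRCm38), was either high or low in a library. It had 12.4, 15.0 and 8.84 normalized counts in the Prm2+/+ libraries, 14.8, 234 and 8.84 in Prm2+/- and 269.9, 273 and 284 in Prm2-/-. All 3 Prm2-/- libraries and the second Prm2+/- library were high, all 3 Prm2+/+ libraries and the other Prm2+/- libraries were low, and no library lay between them. The mean was 12.1 ± 3.09 in Prm2+/+ and 276 ± 7.46 in Prm2-/- (SD, n = 3), a ratio of 22.8. The LFC was 4.43 (SE 1.03, limma adjusted p = 0.377) and did not pass the threshold in the fit to 9 libraries. With only the 6 libraries compared it passed (adjusted p = 0.00101 in limma and 6.7e-45 in DESeq2), as it did without the second Prm2+/- library (adjusted p = 0.000742 in limma). Among all genes these fits called 44, 116 and 29 higher, in that order, and the limma fit to 9 libraries called 23. edgeR on all 9 libraries gave an LFC of 4.51 with an adjusted p of 0.460, and DESeq2 on all 9 libraries gave no adjusted p for this gene. Between Prm2-/- and Prm2+/- the LFC was 3.06 (SE 1.03, limma adjusted p = 0.870), and without the second Prm2+/- library it was 4.47 (adjusted p = 0.00113 in limma). That library was the only high one of Prm2+/-. Fits without it lose the value that made the spread of Prm2+/- wide, so they are no further test of the genotypes. In all, 5 tested genes, Prss46 included, were divided into the same 4 high and 5 low libraries with a gap of more than 2 on the log2 scale, and over any division 13.7% of all tested genes had such a gap.

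Prss46 lies in a group of 6 testis serine protease genes on chromosome 9 between 110798166 and 110864629 (GRCm38), in the order Prss42, Prss44, Prss43, Prss45, Prss46 and Prss50. Prss42 and Prss43 act in meiosis of the male germ line. Prss42 ranged from 222 to 340.0 normalized counts, Prss44 from 87.0 to 124 and Prss43 from 233 to 288, with overlapping genotypes in all 3 genes, so the division by library seen in Prss46 was not shared by these neighbours. Prss45, next to Prss46, was below the level for testing, with 6.65, 6.43 and 3.31 normalized counts in the Prm2+/+ libraries, 4.94, 3.65 and 4.42 in Prm2+/- and 10.9, 10.1 and 8.45 in Prm2-/-. Its Prm2-/- libraries lay above the other 6, at few counts. Prss50, a testis protease with threonine in place of the catalytic serine, had 54.2, 3.21 and 5.52 normalized counts in the Prm2+/+ libraries, 38.6, 2.74 and 5.30 in Prm2+/- and 60.7, 8.12 and 78.1 in Prm2-/-. It was high in the first library of each genotype and in the third Prm2-/- library and low in the other 5, a division that differs from that of Prss46 and that crosses the genotypes. Its LFC between Prm2-/- and Prm2+/+ was 1.62 (SE 1.31, limma adjusted p = 0.760). No 50-base word within the last 400 bases of the annotated Prss46 or Prss50 transcripts was shared with another gene (0 in each), and neither gene overlaps another annotated exon.

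**Figure D3:**
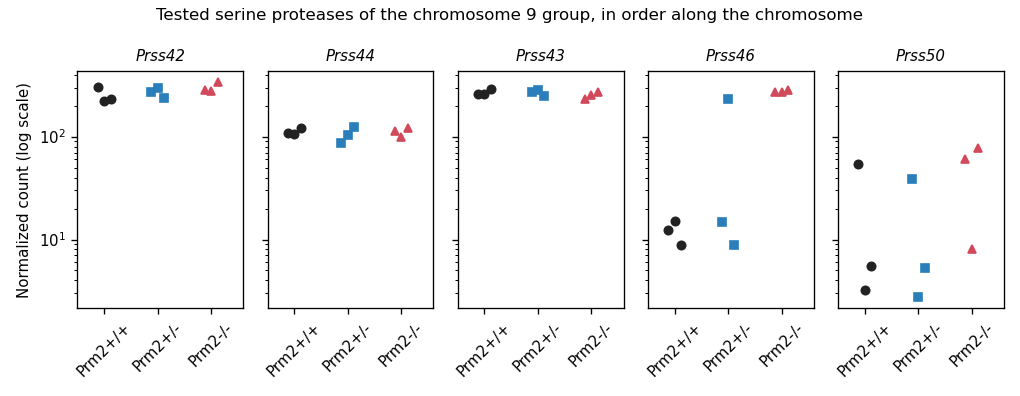
Normalized counts (y axis, log scale) of the 5 tested genes of the chromosome 9 group, in chromosomal order, with 1 point per library and 3 libraries per genotype. Prss46 is high in the 3 Prm2-/- libraries and the second Prm2+/- library and low in the other 5, while Prss42, Prss44 and Prss43 stay level.

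The start region of Prss46 is shown because Prss42, Prss43 and Prss44 nearby do not share its pattern. It runs from 250 bases before the annotated start to 30 bases after it (chr9:110844256-110844535, plus strand, RefSeq on GRCm38.p6), and the capitals mark the only match to GTAAACA, a forkhead-like motif searched on both strands, at positions -39 to -33 from the start.
Prss46: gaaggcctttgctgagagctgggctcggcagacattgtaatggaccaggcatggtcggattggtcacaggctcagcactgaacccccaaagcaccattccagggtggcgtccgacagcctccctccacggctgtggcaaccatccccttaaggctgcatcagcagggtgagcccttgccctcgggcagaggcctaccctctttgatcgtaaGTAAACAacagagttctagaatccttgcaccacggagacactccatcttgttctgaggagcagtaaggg
The motif stood in 3.65% of the 32851 RefSeq start regions of 300 bases and in 2 of the 73 members that have such a region, of which Prss46 was the only one tested. The motif was chosen with the sequence in view, and the match is a description.

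The tissue kallikreins form 1 cluster of 26 members on chromosome 7 from 43690418 to 44229618 (GRCm38), and 9 of them, all of the Klk1 and Klk1b type, were tested. The most abundant, Klk1b8, was the steadiest member, with 809.6, 735 and 804 normalized counts in the Prm2+/+ libraries, 740.5, 729.8 and 738 in Prm2+/- and 809.6, 781 and 795 in Prm2-/- and an interval of -0.14 to 0.19 for the LFC between Prm2-/- and Prm2+/+. Klk1b9 ranged from 164 to 228 and Klk1b26 from 146 to 245, and Klk1b26 had its 3 Prm2-/- libraries above all others, with an LFC of 0.38 (SE 0.16, limma adjusted p = 0.897) against Prm2+/-. Klk1b21, Klk1b24 and Klk1b27, kallikreins known from Leydig cells, were higher in every Prm2+/- and every Prm2-/- library than in every Prm2+/+ library.

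Klk1b24 (chromosome 7, 44188236 to 44192455, plus strand) had 35.2, 31.1 and 30.9 normalized counts in the Prm2+/+ libraries, 77.1, 79.5 and 64.5 in Prm2+/- and 78.8, 49.7 and 48.6 in Prm2-/-. The mean was 32.4 ± 2.40 in Prm2+/+, 73.7 ± 8.05 in Prm2+/- and 59.0 ± 17.1 in Prm2-/- (SD, n = 3), with an LFC of 1.16 (SE 0.21, limma adjusted p = 0.353) in Prm2+/- and 0.81 (SE 0.21, limma adjusted p = 0.428) in Prm2-/-, each against Prm2+/+. DESeq2 on the recovered counts called Klk1b24 higher in Prm2+/- than in Prm2+/+ (adjusted p = 0.0263, and 0.0200 with only the 6 libraries compared). Among all genes DESeq2 called 29 higher in this comparison, and 30 with only the 6 libraries compared, where the main limma fit called 9. Klk1b21 (chromosome 7, 44102328 to 44106583, plus strand) had 35.2, 31.1 and 34.3 normalized counts in the Prm2+/+ libraries, 74.1, 79.5 and 65.4 in Prm2+/- and 96.9, 49.7 and 42.2 in Prm2-/-, with an LFC of 1.10 (SE 0.29, limma adjusted p = 0.842) in Prm2+/- and 0.80 (SE 0.29, limma adjusted p = 0.611) in Prm2-/-, each against Prm2+/+. DESeq2 with only the 6 libraries compared called it higher in Prm2+/- too (adjusted p = 0.0300). Klk1b27 (chromosome 7, 44052290 to 44056712, plus strand) had 22.8, 16.1 and 21.0 normalized counts in the Prm2+/+ libraries, 60.3, 54.8 and 38.9 in Prm2+/- and 76.1, 26.4 and 30.6 in Prm2-/-, with an LFC of 1.31 (SE 0.39, limma adjusted p = 0.842) in Prm2+/- and 0.97 (SE 0.39, limma adjusted p = 0.651) in Prm2-/-, each against Prm2+/+. In each of the 3 genes the first Prm2-/- library was well above the other Prm2-/- libraries, and without it the LFC of Prm2-/- against Prm2+/+ was 0.44 for Klk1b21, 0.59 for Klk1b24 and 0.50 for Klk1b27.

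These kallikreins are close copies, and reads could be split between them. Klk1b21 and Klk1b24 share 18.2% of the 50-base words within the last 400 bases of the Klk1b24 transcript, and their recovered counts were equal in 4 of the 9 libraries and at most 20 counts apart in the others, so their separate values are uncertain. The sum of Klk1b21, Klk1b24 and Klk1b27, which does not depend on the split among them, was 93.1, 78.2 and 86.2 normalized counts in Prm2+/+, 212, 214 and 169 in Prm2+/- and 252, 126 and 121 in Prm2-/-. The sum was therefore higher in each Prm2+/- and Prm2-/- library than in any Prm2+/+ library. Klk1b21 and Klk1b24 also share 50-base words with Klk1b22, and Klk1b27 with Klk1b5 and Klk1b3. Reads could thus still be split between the sum and genes outside it. Of 6 Leydig cell markers 5 are in the table and none of them (0) was at 0 in all libraries, and their summed level was 1564 to 1883 normalized counts in Prm2+/+, 1812 to 2286 in Prm2+/- and 1795 to 1997 in Prm2-/-. Cyp17a1, a steroid-synthesis enzyme of Leydig cells, had 1094, 972 and 1228 normalized counts in the Prm2+/+ libraries, 1442, 1181 and 1143 in Prm2+/- and 1209.9, 1131 and 1161 in Prm2-/-. The 4 tested Leydig markers had a median LFC of 0.22 in Prm2+/- and 0.18 in Prm2-/- against Prm2+/+, with 0 at an unadjusted p under 0.05. All 4 had an LFC above 0 in Prm2+/- and 3 in Prm2-/-, where the Leydig marker Star had -0.058 (SE 0.21, limma adjusted p = 0.959). In whole-testis RNA more cells of a type and more RNA per cell cannot be told apart, and the part of the Leydig cell share in these values was not tested. Markers of the salivary gland and pancreas, tissues rich in tissue kallikreins, summed to 48.5 to 64.1 normalized counts in Prm2+/+, 55.4 to 69.8 in Prm2+/- and 57.0 to 59.9 in Prm2-/-, with the 3 ranges overlapping. Of the 3 tested, 1 was higher at an unadjusted p under 0.05 in Prm2-/- and in Prm2+/-, each against Prm2+/+. It was Cela2a, a pancreatic elastase, with 0, 0 and 8.84 normalized counts in the Prm2+/+ libraries, 9.89, 17.4 and 10.6 in Prm2+/- and 10.9, 8.12 and 10.6 in Prm2-/-.

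The summed markers of peritubular cells, the contractile cells around seminiferous tubules, were lower in each Prm2+/- and Prm2-/- library than in each Prm2+/+ library. By itself, only Acta2 of these markers had this division. All 4 markers are in the table, none (0) was at 0 throughout, and their summed level was 293 to 325 normalized counts in Prm2+/+, 254 to 277 in Prm2+/- and 226 to 271 in Prm2-/-. Of the 3 tested, 2 were lower at an unadjusted p under 0.05 in Prm2-/- (Acta2 and Cnn1) and 1 in Prm2+/- (Acta2), each against Prm2+/+, and 0 were called. Acta2, smooth muscle actin, had 227, 212 and 206 normalized counts in the Prm2+/+ libraries, 185, 185 and 182 in Prm2+/- and 167, 189 and 179.5 in Prm2-/-, with an LFC of -0.27 (SE 0.094, limma adjusted p = 0.604) in Prm2-/- against Prm2+/+. The part of these cells in the members' values was not tested.

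**Figure D4:**
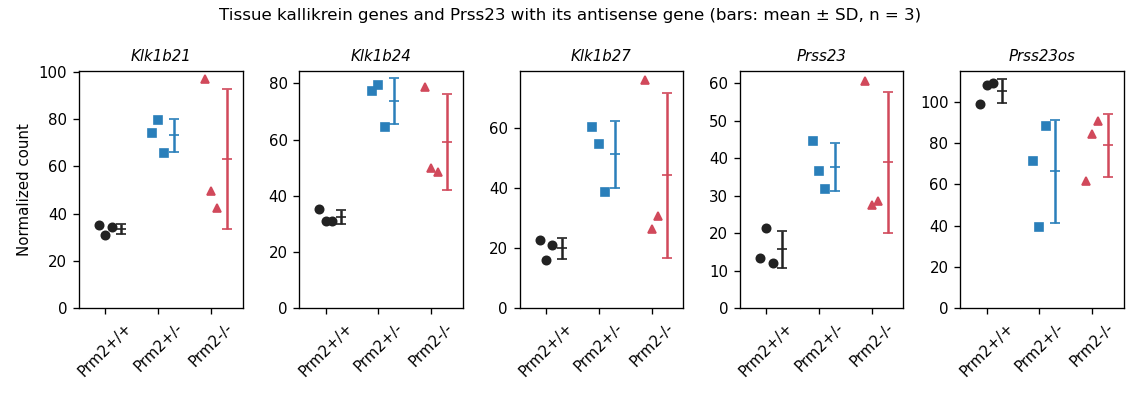
Normalized counts (y axis, from 0) of Klk1b21, Klk1b24, Klk1b27, Prss23 and the antisense gene Prss23os, with 1 point per library and bars for the mean ± SD of 3 libraries per genotype. The first 4 genes are lowest in the 3 Prm2+/+ libraries, and Prss23os is highest there.

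The start regions of the 3 kallikreins are shown side by side because all 3 genes had their lowest libraries in Prm2+/+ and the regions are near copies. They run from 250 bases before to 30 bases after the RefSeq start on the plus strand of GRCm38.p6, at chr7:44102042-44102321, chr7:44187986-44188265 and chr7:44052040-44052319, and the capitals mark every match on either strand to AGGTCA, the half-site bound by many nuclear receptors, here always in its reverse form TGACCT, and to the TATA-like TTTAAA.
Klk1b21: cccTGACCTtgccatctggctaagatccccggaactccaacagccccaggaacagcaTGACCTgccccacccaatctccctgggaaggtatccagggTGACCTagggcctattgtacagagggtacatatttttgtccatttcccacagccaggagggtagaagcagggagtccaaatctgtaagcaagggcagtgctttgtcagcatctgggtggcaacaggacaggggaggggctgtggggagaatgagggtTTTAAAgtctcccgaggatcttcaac
Klk1b24: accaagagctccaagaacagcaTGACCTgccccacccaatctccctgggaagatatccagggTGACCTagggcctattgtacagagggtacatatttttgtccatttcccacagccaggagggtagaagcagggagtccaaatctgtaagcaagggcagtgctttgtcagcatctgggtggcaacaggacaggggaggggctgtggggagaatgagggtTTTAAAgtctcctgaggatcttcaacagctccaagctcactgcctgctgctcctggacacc
Klk1b27: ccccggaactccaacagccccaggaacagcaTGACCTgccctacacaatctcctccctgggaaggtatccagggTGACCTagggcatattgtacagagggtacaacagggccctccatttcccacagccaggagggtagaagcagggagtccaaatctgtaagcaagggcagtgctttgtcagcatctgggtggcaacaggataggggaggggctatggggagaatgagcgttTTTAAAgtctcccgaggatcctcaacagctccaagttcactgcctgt
In a pairwise alignment, Klk1b21 and Klk1b24 were identical at 97.7% of 265 aligned bases, Klk1b21 and Klk1b27 at 94.5% of 274 and Klk1b24 and Klk1b27 at 91.3% of 286, over windows of 300 bases. Klk1b21 held 3 matches to the half-site and the other kallikreins shown 2 each, but the windows are not in register, and the counterpart of the Klk1b21 match farthest from the start would lie outside the other windows, so this count is no difference between the genes. AGGTCA stood in 16.3% of the 32851 regions and in 10 of the 28 tested members that have one, of which 8 are kallikreins, among them the steady Klk1b8. TTTAAA stood in 13.2% of the regions and in 11 of the 28 tested members. By the RefSeq starts, it lay at positions -31 to -26 in Klk1b24 and -17 to -12 in Klk1b27. In Klk1b21 it lay after the start, at positions 5 to 10. The motifs were chosen with the sequences in view, and the matches are descriptions.

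Prss23, a secreted serine protease made in ovary and other tissues, lies on chromosome 7 from 89507783 to 89527187 on the minus strand and overlaps Prss23os, a noncoding RNA gene on the plus strand. Prss23 had 13.3, 21.4 and 12.2 normalized counts in the Prm2+/+ libraries, 44.5, 36.5 and 31.8 in Prm2+/- and 60.7, 27.4 and 28.5 in Prm2-/-. All Prm2+/- and Prm2-/- libraries lay above all Prm2+/+ libraries, and the first Prm2-/- library was the highest. Its LFC was 1.24 (SE 0.35, limma adjusted p = 0.842) in Prm2+/- and 1.20 (SE 0.35, limma adjusted p = 0.522) in Prm2-/-, each against Prm2+/+. Prss23os had 98.8, 108 and 109 normalized counts in the Prm2+/+ libraries, 71.2, 39.3 and 88.4 in Prm2+/- and 61.6, 84.2 and 90.8 in Prm2-/-. It was lower in every Prm2+/- and Prm2-/- library than in every Prm2+/+ library, with an LFC of -0.74 (SE 0.29, limma adjusted p = 0.842) in Prm2+/- against Prm2+/+. The strand setting of the counting is not given in the sources used here, so reads of Prss23 and its antisense gene could not be told apart with certainty.

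Among the 7 proprotein convertase entries with Pcsk1n, the inhibitor of PCSK1, 4 were tested and 0 were called. Pcsk6 is not analysed here. Pcsk4, the convertase of male germ cells that is needed for fertile sperm, had 308, 353 and 409.9 normalized counts in the Prm2+/+ libraries, 314, 352 and 291 in Prm2+/- and 332, 369 and 331 in Prm2-/-. The genotypes overlapped, and its intervals were -0.34 to 0.26 in Prm2-/- and -0.46 to 0.14 in Prm2+/-, each against Prm2+/+, on the LFC scale. Pcsk7, a widely made convertase, had 64.6, 65.4 and 3.31 normalized counts in the Prm2+/+ libraries, 65.3, 68.5 and 59.2 in Prm2+/- and 79.7, 72.0 and 83.4 in Prm2-/-. The third Prm2+/+ library stood alone, near the level of 3 counts, and Pcsk7 was among the 506 genes low only there. Its LFC between Prm2-/- and Prm2+/+ was 1.58 (SE 0.94, limma adjusted p = 0.741), and without that library it was 0.26 (adjusted p = 0.628 in limma). Pcsk7 overlaps exons of Rnf214 and Tagln on the other strand, and Rnf214 had 56.1, 55.7 and 125 normalized counts in the Prm2+/+ libraries, 78.1, 56.6 and 62.7 in Prm2+/- and 72.4, 49.7 and 76.0 in Prm2-/-, with its highest value in the library in which Pcsk7 was lowest. Whether counts were exchanged between these genes was not tested.

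Pcsk2, the convertase of neuroendocrine cells, was near the limit of detection, with 0, 0 and 1.10 normalized counts in the Prm2+/+ libraries, 0, 13.7 and 12.4 in Prm2+/- and 10.9, 0 and 20.1 in Prm2-/-. The Prm2+/+ libraries held at most 1 count, so no fold change is given, and the Prm2+/- and Prm2-/- libraries each included 1 library at 0. The antisense genes Pcsk2os1 and Pcsk2os2 had 0 counts in every library. Pcsk1n ranged from 15.2 to 23.6 normalized counts with overlapping genotypes, while Pcsk1 (at most 13.7) and Pcsk5 (at most 8.90) had counts in 7 libraries each and were not tested. Of the 17 Tmprss genes, which encode serine proteases anchored in the membrane, Tmprss12 alone was tested. Tmprss12, needed in mice for sperm motility and male fertility, had 48.5, 63.2 and 15.5 normalized counts in the Prm2+/+ libraries, 61.3, 56.6 and 69.8 in Prm2+/- and 50.7, 61.9 and 40.1 in Prm2-/-. The third Prm2+/+ library was again the lowest, and the ranges of the genotypes overlapped. The other Tmprss genes reached at most 10.9 normalized counts in a library, and 4 of them (Tmprss11c, Tmprss11e, Tmprss3 and Tmprss4) had 0 counts throughout.

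**Figure D5:**
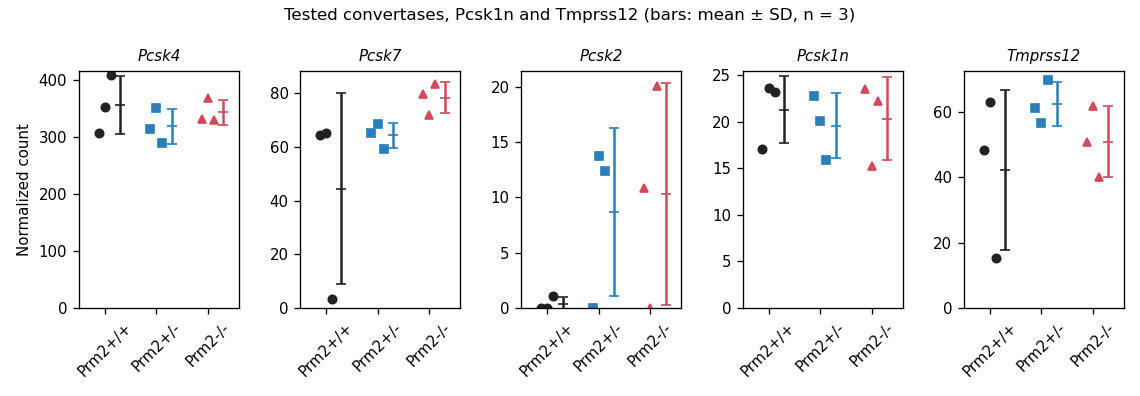
Normalized counts (y axis, from 0) of Pcsk4, Pcsk7, Pcsk2, Pcsk1n and Tmprss12, with 1 point per library and bars for the mean ± SD of 3 libraries per genotype. Pcsk4 and Pcsk1n overlap between genotypes, and the third Prm2+/+ library is the lowest for Pcsk7 and Tmprss12.

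The other tested members were read by their ranges. Prss54 ranged from 736 to 1122 normalized counts, Prss52 from 574 to 908 and Prss58 from 286 to 435, and in each the third Prm2+/+ library was the highest and the genotypes overlapped. Prss56 had 175, 156 and 173 normalized counts in the Prm2+/+ libraries, 195, 185 and 209 in Prm2+/- and 187, 184 and 155 in Prm2-/-, and Prss47 had 47.5, 43.9 and 48.6 normalized counts in the Prm2+/+ libraries, 56.4, 55.7 and 84.8 in Prm2+/- and 75.2, 61.9 and 47.5 in Prm2-/-. In both genes every Prm2+/- library lay above every Prm2+/+ library, and the Prm2-/- libraries overlapped both ranges. Prss35, a secreted member without the catalytic serine, ranged from 17.7 to 31.1, the kallikrein Klk1 from 16.8 to 39.1 and Klk1b5 from 8.57 to 21.7, with overlapping genotypes. Among the genes below the level for testing, Klk1b22 had 10.6 normalized counts in the third Prm2+/- library, 27.2 in the first Prm2-/- library and 0 in the other 7, and it shares 50-base words near its end with Klk1b21 and Klk1b24.

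Other members differed widely between libraries of 1 genotype. Prss48 had 5.70, 22.5 and 43.1 normalized counts in the Prm2+/+ libraries, 2.97, 30.1 and 24.7 in Prm2+/- and 33.5, 30.4 and 50.7 in Prm2-/-, low in the first library of Prm2+/+ and of Prm2+/-. Its 3 Prm2-/- libraries lay above the 3 Prm2+/- libraries, by a narrow margin over the second, with an LFC of 1.38 (SE 0.91, limma adjusted p = 0.977) between them, and overlapped those of Prm2+/+. Klk1b3 had 18.1, 22.5 and 18.8 normalized counts in the Prm2+/+ libraries, 13.8, 22.8 and 0 in Prm2+/- and 19.0, 0 and 25.3 in Prm2-/-, with 0 in the third Prm2+/- and the second Prm2-/- library. Its untested neighbour Klk1b4 had 5.30 and 6.09 normalized counts in these same libraries and 0 in all others. Klk1, which shares 50-base words with Klk1b3, was lowest in the same libraries, at 16.8 and 19.3. Klk1b4 shares such words near its end only with Klk1b1. Whether counts were exchanged between these genes was not tested. With 5 of the 36 tested members (Klk1b3, Prss46, Pcsk7, Pcsk2 and Prss50) showing a gap of more than 2 on the log2 scale, their share was close to the 13.7% among all tested genes.

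Genes that work with these proteases were read from 3 further lists, none of which had a called gene (0 in each comparison). Of 46 serine proteases of other names 21 were tested, and 1 was higher and 1 lower at an unadjusted p under 0.05 in Prm2-/- against Prm2+/+ (Plat and Dpp8). Acr, the acrosomal protease acrosin, had an LFC of 0.00044 (SE 0.21, limma adjusted p = 0.9997) between Prm2-/- and Prm2+/+, and the convertase Furin was at 0 in the third library of both Prm2+/+ and Prm2+/- and at 66.1 to 76.0 in the others. Dpp8, a cytosolic dipeptidyl peptidase, had 260.4, 254 and 256 normalized counts in the Prm2+/+ libraries, 264, 196 and 263 in Prm2+/- and 180.2, 192 and 190.1 in Prm2-/-, with an LFC of -0.45 (SE 0.13, limma adjusted p = 0.506) in Prm2-/- against Prm2+/+. Plat, the tissue plasminogen activator, was near the limit of detection, with 8.55, 0 and 0 normalized counts in the Prm2+/+ libraries, 0, 11.0 and 10.6 in Prm2+/- and 15.4, 12.2 and 18.0 in Prm2-/-. Its Prm2-/- libraries lay above all others. Of 50 protease inhibitors 25 were tested, and at an unadjusted p under 0.05 1 was higher (Serpina5) and 1 lower (Serpina3g) in Prm2+/- against Prm2+/+. Serpina5, which inhibits acrosin and is needed for spermatogenesis, had 246, 272 and 319 normalized counts in the Prm2+/+ libraries, 366, 413 and 385 in Prm2+/- and 287, 227 and 267 in Prm2-/-. Its Prm2+/- libraries lay above all others, with an LFC of 0.48 (SE 0.13, limma adjusted p = 0.842) in Prm2+/- against Prm2+/+ and -0.58 (SE 0.13, limma adjusted p = 0.510) in Prm2-/- against Prm2+/-.

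Of 32 genes for the maturation of sperm surface proteins 29 are in the table and 28 were tested, with 0 passing an unadjusted p of 0.05 between Prm2-/- and Prm2+/+. Adam3, the sperm surface protein whose processing depends on several of these proteases, had an LFC of -0.094 (SE 0.088, limma adjusted p = 0.785) in that comparison and of -0.21 (SE 0.088, limma adjusted p = 0.842) in Prm2+/- against Prm2+/+, where Adam3 and Ace were the 2 genes of the list lower at an unadjusted p under 0.05. Ace, the angiotensin-converting enzyme with a testis isoform, had 186, 216 and 202 normalized counts in the Prm2+/+ libraries, 151, 109 and 68.9 in Prm2+/- and 149, 179.6 and 173 in Prm2-/-. Its Prm2+/- libraries lay below all Prm2+/+ libraries, with an LFC of -0.94 (SE 0.26, limma adjusted p = 0.842) in Prm2+/- against Prm2+/+. The median LFC between Prm2-/- and Prm2+/+ was 0.00044 for the proteases of other names, 0.056 for the inhibitors and -0.028 for the surface protein genes, beside 0.020 over all tested genes.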

How the data were processed

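Testis RNA libraries of 3 Prm2+/+, 3 Prm2+/- and 3 Prm2-/- samples were analysed from 1 deposited table. According to the submitters' processing notes and the paper, the authors used Trim Galore 0.4.5, HISAT2 2.1 on GRCm38, StringTie 1.3.3 and DESeq2, and dropped pseudogenes. They deposited normalized counts, here treated as a signal, in which the counts of a sample are scaled by its own size factor. Whole counts were recovered for 100% of values within 0.001 counts, less surely in the first Prm2+/- library, whose factor is close to 1. The recovered counts were 3629929 to 4490411 per library, and limits from them cover counting error only. No column (0) lacked a sample.

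The members and all gene lists were chosen with earlier results of these data known. Genes were kept with filterByExpr (14893), and limma (trend) was fitted to log2(value + 1) of all 9 samples by genotype. LFCs on this scale understate changes of low genes. Calls were made at a Benjamini-Hochberg adjusted p under 0.05 with an LFC past 0.5. Members named are those of the acrosome and convertase lists, the 5 highest and the 5 lowest LFCs against Prm2+/+, the 20 highest means and those with a gap over 2 on the log2 scale. Other genes were named after their values were seen. A convertase and a list that goes with it are not reported here. Alternatives were pseudocounts of 0.5 and 5, other filters, TMM factors, edgeR and DESeq2 on recovered counts, only the 6 samples compared, a replicate block and leaving out each sample. Scripts were tested on simulated counts. Positions are from GENCODE M21 on GRCm38, and start regions from RefSeq on GRCm38.p6, matched by symbol for 73 of 91 members. Protein sequences were not analysed here. Libraries of a genotype differed beyond sampling noise (chi-square per degree of freedom 12.1 to 28.0), so none was counted as a duplicate. Tools were limma 3.58.1, DESeq2 1.42.0 and edgeR 4.0.16 in R 4.3.3, and Python 3.11.15, pandas 2.3.3, Biopython 1.88 and matplotlib 3.10.9.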

Additional observations from a re-analysis of the deposited data

How the results depend on the processing

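The count of members called was 0 in each direction of each comparison and stayed 0 in 108 recomputed counts and not in 6. Prss46 was the 1 member higher in Prm2-/- than in Prm2+/+ with only the 6 samples compared, in limma and in DESeq2. Among all genes these fits called 44 and 116 higher. Without the second Prm2+/- library, its only high Prm2+/- library, Prss46 was the 1 member higher in Prm2-/- than in Prm2+/+ and than in Prm2+/-. Among all genes 29 and 34 were called higher there. Leaving out each sample in turn thus gave counts of 0 to 1 in both comparisons. DESeq2 called 1 member higher in Prm2+/- than in Prm2+/+ (Klk1b24), and 2 with only the 6 samples compared (Klk1b21 and Klk1b24). Among all genes it called 29 and 30 higher in these fits. Over all alternatives, 693 recomputed LFCs of the 13 members tested in detail kept their direction and their side of the threshold, 7 passed it and 20 changed sign. The LFC of Prss23 between Prm2-/- and Prm2+/- was -0.039 in limma and 0.059 in edgeR, 0.057 in DESeq2 and 0.063 in DESeq2 on 6 samples. With each sample left out in turn, LFCs crossed 0 for Klk1b3 (-2.21 to 0.15) in Prm2-/- against Prm2+/+, for Klk1b26 (-0.23 to 0.028), Pcsk7 (-0.017 to 1.95), Prss46 (-0.038 to 2.25) and Prss50 (-1.24 to 0.90) in Prm2+/- against Prm2+/+, and for Klk1b3 (-1.22 to 1.70), Pcsk2 (-1.15 to 1.44), Prss23 (-0.40 to 0.16) and Prss23os (-0.027 to 0.55) in Prm2-/- against Prm2+/-. The causes were not tested. With each sample left out in turn, 37 to 38 members had counts in all the libraries that remained, against 37 in all 9, an alternative chosen after the data were seen.

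Libraries with the same replicate number did not deviate together (correlations of -0.04 to 0.04), so the numbers were not taken as pairs. A replicate block gave 0 called members in each comparison, and for Prss46 in Prm2-/- against Prm2+/+ an LFC of 4.43 (adjusted p = 0.522 in limma). With 3 libraries per genotype and 3629929 to 4490411 recovered counts per library, members of few counts, such as Pcsk2, had wide intervals, and a missing call does not show that genotypes did not differ.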
